A study of Mus musculus with 4 samples.

Results

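The γ-secretase complex and the Deltex ubiquitin ligases both act on the Notch receptor, and their RNA levels were followed here in the midbrain of *Lmx1a-dr/dr* embryos. Of the 9 genes in these families that were looked for on the array by gene symbol, 8 were found (*Ncstn*, *Psen2*, *Aph1a*, *Aph1b*, *Dtx1*, *Dtx2*, *Dtx3* and *Dtx4*), with 13 of the 41174 probes tested. *Psenen* was matched by no probe and is not analysed here. The families were chosen by the low ratios of *Ncstn* and *Dtx3* on these same arrays. All values of the 13 probes, calls included, are therefore given as a description without a test. *Ncstn*, at 77.1% of the wild-type level, and *Dtx3*, at 70.1% and 64.3% by its 2 probes, were lower in dr/dr midbrain on all 4 arrays, whereas the means of *Psen2*, *Aph1a*, *Aph1b* and *Dtx4* lay within 0.10 of 0 on the log2 scale.

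The tested material was micro-dissected midbrain of E12.5 embryos homozygous for the drJ point mutation of *Lmx1a* (*Lmx1a-dr/dr*). It is called midbrain throughout, as in the paper's methods. The paper's results describe it as mesodiencephalic and retromamillary tegmentum, so it reached beyond the midbrain. The mutants came from the strain B6C3Fe a/a-*Lmx1a* dr-J/J, which had been kept on C57Bl/6J. The RNA of 5 such midbrains was pooled for each replicate (a, b, c and d) and set on 1 dual-colour array against a single pool of 20 midbrains from *Lmx1a*+/+ embryos, which served all arrays. Replicates a and c had the dr/dr RNA labelled with Cy3, and for b and d the dyes were swapped. Every result is a log2 ratio of dr/dr over this wild-type pool set against 0. The spread between wild-type litters is thus not measured, and fewer cells of a type cannot be told apart from less RNA per cell.

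Notch is a receptor that is cut in steps once a ligand has bound it. After a metalloprotease has removed the outer part, γ-secretase cuts within the membrane and sets free the intracellular domain, which enters the nucleus and switches on *Hes* and *Hey* genes together with the DNA-binding protein Rbpj. In the embryonic brain this pathway is known for keeping neural progenitors from differentiating. γ-secretase is built from a presenilin (the catalytic subunit), nicastrin, an Aph1 protein and Pen-2, and it also cuts many other membrane proteins, App among them. Deltex proteins are RING-type ubiquitin ligases, first found in *Drosophila*, where Deltex binds the Notch intracellular domain and steers receptor traffic and degradation.

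On the arrays, replicates of the same dye orientation correlated at 0.58 and 0.64 over all probes, and replicates of opposite orientation between -0.34 and -0.29, as a description across probes. Ratios therefore carry a dye-linked part. Means of the Cy3 and Cy5 arrays are given apart below only for *Ncstn*, *Dtx3* and the dimmest *Dtx4* probe. For other probes a missing split does not mean that the orientations were alike. Where their 4 ratios are listed, replicates a and c are the Cy3 arrays and b and d the Cy5 arrays. The median spot intensity was 73.4 to 144 for dr/dr RNA and 70.0 to 174 for the wild-type pool, over local backgrounds of 32.5 to 36.4. The permutation F2 test of the study's methods, with a dye term and a family-wise p below 0.05, called 113 probes (0.274% of 41174), of which 78 were lower (0.189%) and 35 higher in dr/dr. Data simulated without change gave some calls as well, so calls may include false ones. limma called 0 probes at a Benjamini-Hochberg adjusted p below 0.05 and 249 below 0.10, with 7036 at an unadjusted p below 0.05. *Lmx1a* itself stood at -0.46, -0.75, -0.39 and -0.84 in replicates a to d (mean -0.61, SE 0.035) and was called. Of 11 midbrain and floor plate markers, 11 were above background on all arrays in both genotypes, and the median was -0.083. The permutation F2 test called 2 of them lower in dr/dr (*Th*, and *Nr4a2* by its brightest probe) and 0 higher. At a limma unadjusted p below 0.05, 6 of the 11 had a probe. Of the markers of forebrain, hindbrain, endothelium, blood and mesenchyme, 0 of 4, 5, 5, 5 and 5 measured genes were called by the permutation F2 test, and 2, 1, 1, 2 and 0 had a probe at a limma unadjusted p below 0.05. Over all 18295 genes these shares were 0.503% and 26.6%. With so few genes per list, nothing is read from the counts. The part of cell composition in the values below was not tested.

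The stretch just upstream of *Ncstn*, the γ-secretase gene with a low ratio, is shown beside that of *Aph1a*, a subunit gene of the same complex whose 4 ratios spanned 0. Both are RefSeq sequences of build GRCm38.p6, read 5′ to 3′ on the gene's strand and ending at the base before the annotated gene, and capitals mark CG dinucleotides. The *Ncstn* stretch is chr1:172082790-172082999 on the minus strand, and that of *Aph1a* is chr3:95893671-95893920 on the plus strand.
Ncstn: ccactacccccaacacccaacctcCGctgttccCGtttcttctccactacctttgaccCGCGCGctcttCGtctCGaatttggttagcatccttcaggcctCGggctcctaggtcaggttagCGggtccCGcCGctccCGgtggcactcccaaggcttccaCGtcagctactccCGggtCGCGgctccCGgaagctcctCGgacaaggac
Aph1a: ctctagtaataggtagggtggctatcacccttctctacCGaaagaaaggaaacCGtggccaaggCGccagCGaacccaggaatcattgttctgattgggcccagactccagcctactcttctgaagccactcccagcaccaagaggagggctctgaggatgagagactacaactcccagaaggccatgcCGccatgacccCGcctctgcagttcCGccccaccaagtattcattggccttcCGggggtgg
The 210 bases before *Ncstn* hold 18 CG dinucleotides at 63.3% G and C, and the 250 bases before *Aph1a* hold 8 at 57.2%. Lmx1a is a LIM-homeodomain factor, and the homeodomain core TAATTA (both strands) was in 0 of the 9 promoter windows that RefSeq gave for 7 of the 9 genes, each of 250 bases before and 50 after a start, against 5.29% of all 32851 windows. The Rbpj core TGGGAA (both strands) was in 4 of the 9 (*Aph1a*, *Dtx2* and 1 each of 2 windows of *Psen2* and *Psenen*), against 25.6% of all. *Dtx3* and *Dtx4* were not among the windows. A match or its absence says nothing here of binding.

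*Ncstn* encodes nicastrin, the large glycoprotein that takes up the substrates of the complex. Its log2 ratio (probe MMAB013519) was -0.46, -0.32, -0.44 and -0.28 in replicates a to d, with a mean of -0.38 ± 0.088 (SD, n = 4 arrays; SE 0.030). The normalized intensity was 107, 90.8, 87.7 and 93.4 in dr/dr and 147, 113, 119 and 114 in the wild-type pool of the same arrays. All 4 dr/dr values lay below all 4 wild-type values. How many of all probes show this was not counted, and the gene was chosen by its low ratio, so nothing is read from it. The ratio averaged -0.45 with dr/dr in Cy3 and -0.30 with dr/dr in Cy5, so the gene was lower in both orientations. Over all probes *Ncstn* had the 177th lowest mean ratio. It was the 1 called γ-secretase probe of 6, beside 0.274% of all probes called, and nothing is read from this share either.

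**Figure D1:**
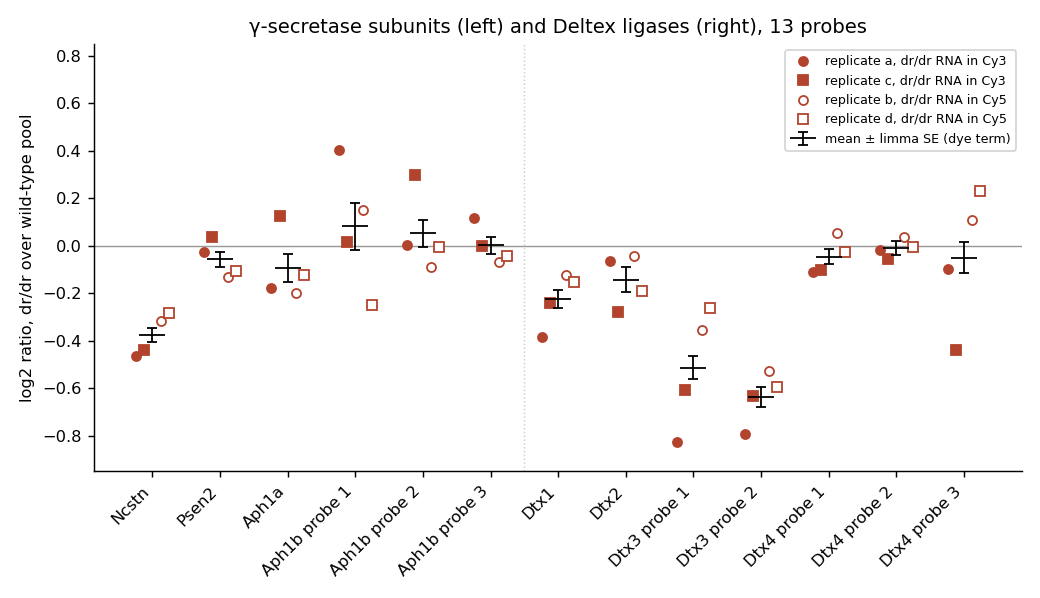
Log2 ratio of dr/dr over the wild-type pool (y axis) for the 13 probes of γ-secretase subunits and Deltex ligases (x axis), with filled symbols for arrays with dr/dr RNA in Cy3, open symbols for Cy5, and bars for the mean ± limma SE, which leaves out the dye effect. *Ncstn* and both *Dtx3* probes lie below -0.25 on every array, while *Aph1b* and *Dtx4* probes lie on both sides of 0.

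*Psen2* encodes presenilin 2, a protease that can form the catalytic core. Its ratio was -0.027, -0.13, 0.036 and -0.11 in replicates a to d (mean -0.057 ± 0.076, SD; SE 0.031). The normalized intensity was 134, 118, 117 and 116 in dr/dr and 136, 129, 114 and 125 in the wild-type pool. The 2 genotypes overlapped, and replicate c went the other way from the rest.

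*Aph1a* and *Aph1b* encode alternative versions of the scaffold that holds the complex together. *Aph1a* stood at -0.18, -0.20, 0.13 and -0.13 (mean -0.094, SE 0.060), lower in 3 of 4 replicates. The 3 *Aph1b* probes had means of 0.081 (SE 0.097), 0.051 (SE 0.059) and 0.0016 (SE 0.035), in order of falling intensity. The brightest of them ran between -0.25 and 0.41 over the 4 arrays, the widest range among the γ-secretase probes, and the 3 probes differed from each other by 0.24 to 0.40 within an array. Mouse *Aph1c* is a near-identical copy of *Aph1b*, and the array annotation gives no probe under its name, so signal of both genes may meet on these probes.

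**Figure D2:**
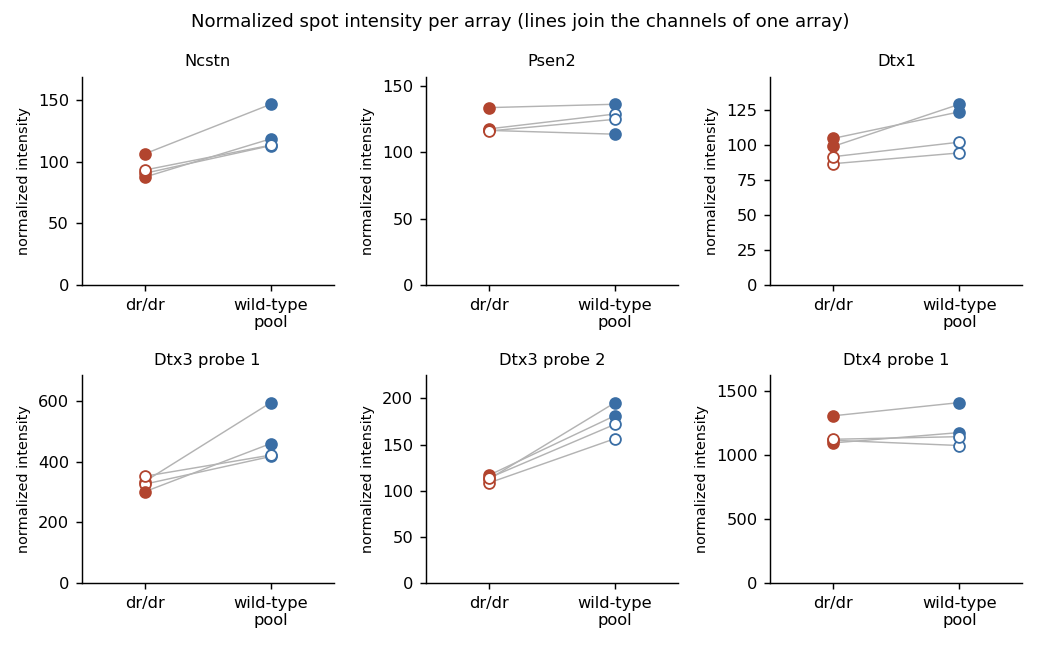
Normalized spot intensity (y axis, arbitrary units from 0) in the dr/dr channel (left, red) and the wild-type pool channel (right, blue) of the 4 arrays, for 6 probes, with a grey line joining the channels of 1 array and filled symbols where dr/dr RNA was in Cy3. For *Ncstn* and both *Dtx3* probes every dr/dr value lies below every wild-type value, while for *Psen2*, *Dtx1* and *Dtx4* probe 1 they overlap. The share of all probes without overlap was not counted.

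Among the Deltex genes *Dtx3* stood out by size. *Dtx3* encodes a short Deltex protein that keeps the RING domain but lacks the WWE domains, through which *Drosophila* Deltex binds Notch. The brighter of its 2 probes (probe 1, MMAB006798) gave -0.83, -0.36, -0.61 and -0.26 in replicates a to d, with a mean of -0.51 ± 0.26 (SD, n = 4 arrays; SE 0.049). The dimmer one (probe 2, MMAB032586) gave -0.79, -0.53, -0.63 and -0.59, with a mean of -0.64 ± 0.11 (SD; SE 0.041). Both probes were called, and replicate a was the lowest array for each.

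The normalized intensity of *Dtx3* probe 1 was 334, 326, 301 and 352 in dr/dr and 593, 417, 459 and 421 in the wild-type pool. That of probe 2 was 113, 109, 117 and 114 in dr/dr and 196, 157, 181 and 172 in the wild-type pool. For both probes the genotypes did not overlap, and the wild-type channel varied more between arrays than the dr/dr channel. The share of all probes without overlap was not counted, and *Dtx3* was chosen by its low ratio, so nothing is read from this. In the list of all 41174 mean ratios, probe 2 was the 14th lowest and probe 1 the 49th lowest.

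The 2 *Dtx3* probes agreed in direction but not in how far the ratio depended on the dye. Probe 1 averaged -0.72 with dr/dr in Cy3 and -0.31 with dr/dr in Cy5, and probe 2 averaged -0.71 and -0.56. The dye effect, which is 0.5 times that difference, was 0.21 for probe 1 and 0.077 for probe 2, against an SD of 0.15 over all probes. In absolute size this placed probe 1 at the 89.5th percentile and probe 2 at the 56.5th. Between the probes the ratio differed by 0.024 in replicate c and by 0.33 in replicate d.

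*Dtx1*, *Dtx2* and *Dtx4* encode the longer Deltex proteins with WWE domains. *Dtx1* stood at -0.38, -0.12, -0.24 and -0.15 in replicates a to d (mean -0.22 ± 0.12, SD; SE 0.038), or 85.6% of wild-type. It was lower on all arrays but was not called, and its normalized intensities of 86.9 to 105 in dr/dr overlapped with those of 94.6 to 129.5 in the wild-type pool. *Dtx2* stood at -0.062, -0.044, -0.28 and -0.19 (mean -0.14 ± 0.11, SD; SE 0.052). It also kept 1 direction on all arrays, with the larger values in replicates c and d.

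*Dtx4* was read by 3 probes with means of -0.046 (SE 0.032), -0.011 (SE 0.030) and -0.050 (SE 0.067), from the brightest to the dimmest. The dimmest ran from -0.44 in replicate c to 0.23 in replicate d. It averaged -0.27 with dr/dr in Cy3 and 0.17 with dr/dr in Cy5, so its sign followed the dye, and its dye effect of 0.22 was the largest in size of the 13. The brighter 2 probes varied by 0.16 and 0.091 over the arrays.

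Over both families, 3 of the 13 probes were called, all lower in dr/dr, where 0.189% of all probes were called lower. Below 0 on all 4 arrays were 5 (*Ncstn*, *Dtx1*, *Dtx2* and both of *Dtx3*), where 8.02% of all probes were. These shares are fixed in part by how the genes were chosen, and nothing is read from them. The median of the 13 means was -0.057, beside 0.00064 over all probes. Of the γ-secretase probes 3 of 6 had a mean below 0, and of the Deltex probes 7 of 7. Of the called probes that of *Ncstn* had the mean nearest to 0, at -0.38, and of the other 10 that of *Dtx1* lay farthest from 0, at -0.22. All 13 probes exceeded their local background on all 4 arrays in both genotypes, and no filter on low values was used, so that no member was dropped. *Dtx3l*, a relative of *Dtx3*, exceeded background on 2 of 4 arrays in dr/dr and 1 of 4 in the wild-type pool, so its ratio is not read.

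**Figure D3:**
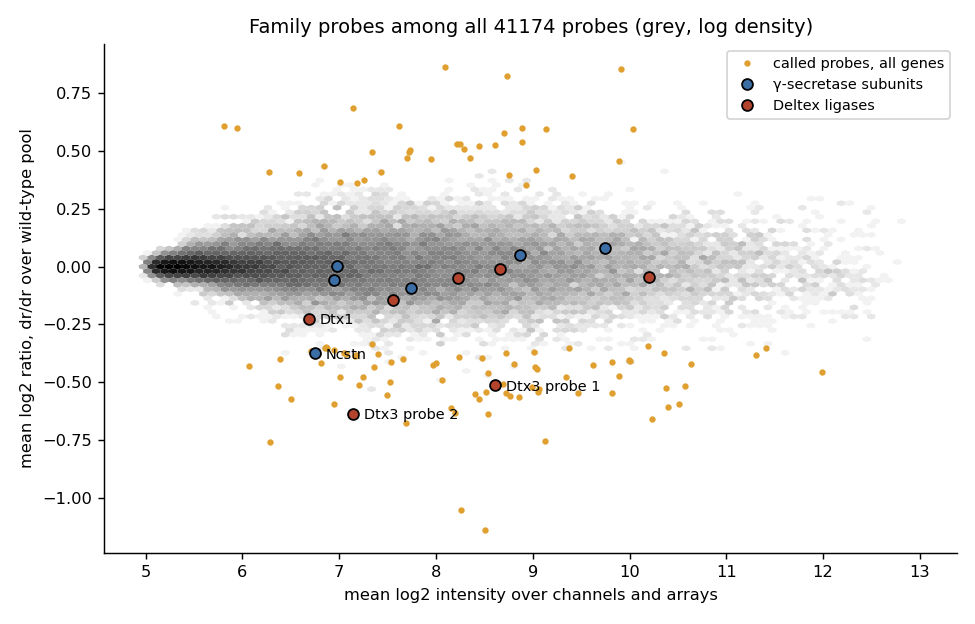
Mean log2 ratio of dr/dr over the wild-type pool (y axis) against mean log2 intensity (x axis) for all 41174 probes (grey, log density), with called probes in orange, γ-secretase subunits in blue and Deltex ligases in red. *Ncstn* at -0.38 and *Dtx3* at -0.51 and -0.64 lie below the bulk of probes of like intensity, and the other 10 probes lie within it or at its edge.

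The remainder of the Notch pathway was listed from ligands to target genes, to set the 2 families beside the genes they work with. Of 61 listed genes 59 were measured, and the permutation F2 test called 0 of them, beside 0.503% of all 18295 genes. limma called 0 at an adjusted p below 0.05 or 0.10, and 2 (*Lfng* and *Tle3*) below 0.05 once an intensity trend was added. At an unadjusted p below 0.05, limma had 18 of the 59 (30.5%) with at least 1 such probe, 12 with a lower probe and 7 with a higher one, beside 26.6% of all genes. The median ratio by the brightest probe was -0.022, beside -0.0044 over all genes, with 35 genes below 0 and 24 above.

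Among the ligands *Dlk1*, a membrane protein that resembles Delta but lacks its receptor-binding domain, had the largest mean by its brightest probe, with -0.15, -0.32, -0.20 and -0.29 (mean -0.24, SE 0.030). Its other probe averaged -0.30 (SE 0.092) but stood at 0.085 in replicate d. Of the 4 receptors *Notch3* had the largest mean by the brightest probe, at -0.15 (SE 0.083), which rested on -0.57 in replicate c. The dimmer *Notch1* probe stood lower, at -0.30, -0.26, -0.074 and -0.32 (mean -0.24, SE 0.048), without being called. The brighter *Notch1* probe averaged -0.10 (SE 0.059) with ratios on both sides of 0. *Lfng*, a glycosyltransferase that tunes which ligand Notch responds to, stood at -0.14, -0.053, -0.38 and -0.40 (mean -0.24, SE 0.076). It was lower on all arrays without being called. *Neurl1a*, a ligase for ligands, averaged -0.071 (SE 0.044), and *Adam10*, the metalloprotease of the first cut, averaged 0.050 (SE 0.064) with ratios on both sides of 0.

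Inside the cell, *Itch*, a ubiquitin ligase for Notch, averaged 0.10 (SE 0.16) over a range of -0.36 to 0.60, and *Kat2a*, an acetyltransferase of the nuclear complex, averaged -0.19 (SE 0.038) with the same sign on all arrays. *Tle1*, a Groucho corepressor, had the largest mean of the pathway genes by its brightest probe, with 0.43, 0.070, 0.61 and 0.21 (mean 0.33, SE 0.048). Its other 2 probes averaged 0.080 and -0.014, so the gene's probes disagreed. Of the 7 target genes *Hes5* had the largest mean, with 0.35, 0.56, 0.013 and -0.014 (mean 0.23, SE 0.11), higher in replicates a and b and near 0 in c and d. The median of the 7 targets was -0.014.

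**Figure D4:**
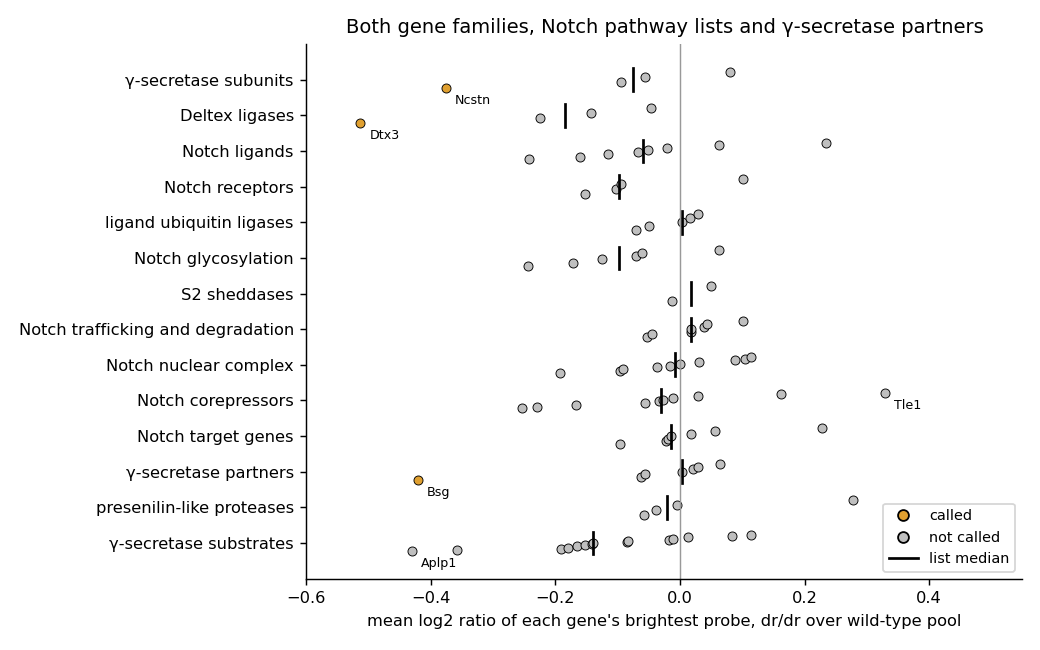
Mean log2 ratio of dr/dr over the wild-type pool (x axis) of each measured gene by its brightest probe, for the γ-secretase subunits, the Deltex ligases and 12 lists of pathway and partner genes (rows), with called probes in orange, others in grey and a bar at each list's median. The called points are *Ncstn* at -0.38, *Dtx3* at -0.51 and *Bsg* at -0.42.

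Proteins that bind γ-secretase or are cut by it were listed as well. Of 30 such genes (partners, presenilin-like proteases, substrates and relatives of the 2 families that were not among the chosen genes) 27 were measured, and 2 had a called probe, both lower in dr/dr, beside 0.503% of all genes. At an unadjusted p below 0.05 limma had 16 of the 27 (59.3%), beside 26.6% of all genes. These 27 genes had 79 probes, and 15 of them were substrates with 57 probes, beside 34186 probes for all 18295 genes. A gene with more probes has more chances to hold 1 such probe, so these shares are not like for like. Nothing is read from them. Substrates had a median of -0.14, with 12 of 15 genes below 0, and partners a median of 0.0029 with 3 of 7 below 0.

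*Bsg* encodes basigin, a membrane glycoprotein that has been found with the γ-secretase complex. It stood at -0.50, -0.41, -0.46 and -0.32 in replicates a to d (mean -0.42 ± 0.076, SD, n = 4 arrays; SE 0.033), which is 74.7% of wild-type. The permutation F2 test called it lower in dr/dr. The values are close to those of *Ncstn* on each array. *Sdc3*, a heparan sulphate proteoglycan of neurons that γ-secretase cuts, was called lower by 1 of its 2 probes, with -0.23, -0.54, -0.15 and -0.58 (mean -0.37, SE 0.032). Its brighter probe averaged -0.14 (SE 0.036) and was not called, so the call rests on 1 probe. The calls of *Bsg* and *Sdc3* were both lost without the dye term and with any 1 array left out. Neither gene was called by limma at an adjusted p below 0.05, and the lists were made with earlier results of these data known.

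*Aplp1*, a relative of App, had the largest mean among the substrates, with -0.67, -0.28, -0.36 and -0.41 (mean -0.43, SE 0.062). It was lower on all arrays, with an SD of 0.17, and was not called. *Sppl2a*, a protease related to the presenilins, stood at 0.44, 0.50, 0.082 and 0.095 by its brightest probe (mean 0.28, SE 0.094) and was not called. Of its other 4 probes, 3 averaged 0.18 to 0.34 and 1, above background on 3 of 4 arrays in either genotype, averaged -0.046.

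The genes whose 4 ratios were most like those of *Dtx3* probe 2 were found by the root mean square difference over the 4 arrays. The nearest 5 were *Cfl1* at 0.035, *Dlgap4* at 0.044, *Lrrc4b* at 0.061, *Lbh* at 0.065 and *Csnk1e* at 0.070. *Cfl1*, which encodes cofilin, stood at -0.75, -0.53, -0.59 and -0.56 in replicates a to d, beside -0.79, -0.53, -0.63 and -0.59 for *Dtx3*. All 5 had means between -0.68 and -0.57 and their lowest ratio in replicate a. Both traits are those of *Dtx3* probe 2 and follow from how the 5 were picked, so nothing is read from them. The other *Dtx3* probe, at 0.19, was only the 25th nearest probe. With 4 arrays that share 1 wild-type pool, such likeness is a description.

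*Ncstn* and *Psen2* lie on chromosome 1, as does *Lmx1a*. In the RefSeq order of the 1049 measured genes of that chromosome, *Ncstn* was the 49th gene past *Lmx1a* and *Psen2* the 124th on the same side. Of the 20 measured genes nearest to *Ncstn*, 1 was called (*Vangl2*, named after its value was seen), 12 were below 0 by the brightest probe, and the median was -0.025. Of the 20 nearest to *Psen2*, 0 were called and 7 were below 0, with a median of 0.019. *Dtx3*, on chromosome 10, and the other members lie elsewhere in the genome.

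The mean ratios were computed again with other background correction, centring and spot signals and with each array left out. *Ncstn* lay between -0.43 and -0.32 over the 4 other ways of processing, *Dtx3* probe 1 between -0.55 and -0.49, and *Dtx3* probe 2 between -0.65 and -0.55. With any 1 array left out they lay between -0.38 and -0.37, -0.57 and -0.46, and -0.68 and -0.60. These left-out values come from the model with a dye term, as the average of the Cy3 mean and the Cy5 mean. They are not plain means of 3 arrays and can vary less than such means. The calls were less steady than the values. With 3 arrays the permutation F2 test called 0 of the 13 probes, whichever array was left out, and 0 to 7 probes in all. *Dtx1* stayed between -0.26 and -0.17 in all 8 settings and *Dtx2* between -0.20 and -0.084, whereas *Aph1b* and *Dtx4* probes each changed sign in at least 1.

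**Figure D5:**
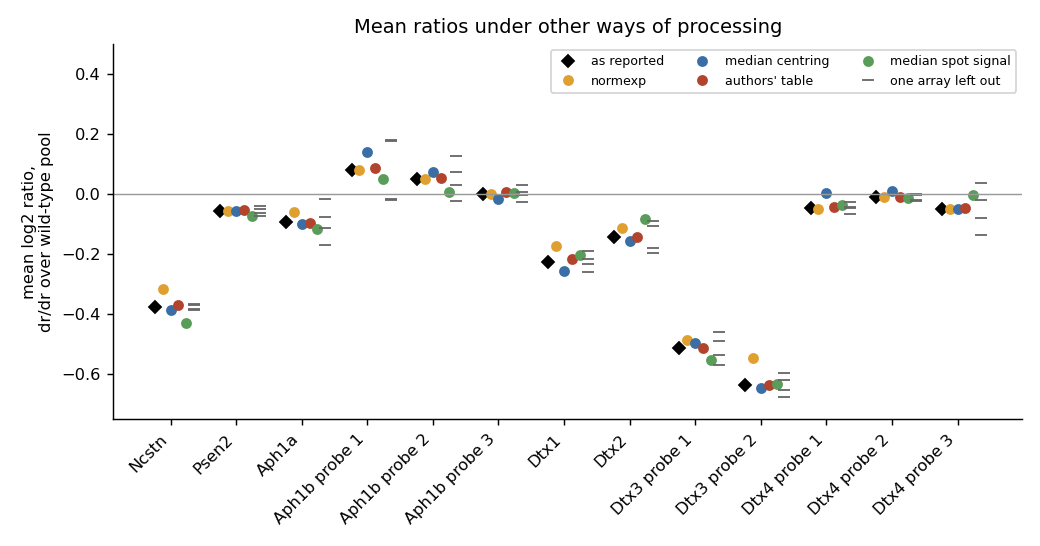
Mean log2 ratio of dr/dr over the wild-type pool (y axis) for the 13 probes (x axis) as reported (black diamonds), under 4 other ways of processing (coloured points) and with 1 array left out at a time (grey dashes). Each dash is the average of the Cy3 mean and the Cy5 mean of the arrays kept. *Ncstn* stays between -0.43 and -0.32 and both *Dtx3* probes between -0.68 and -0.46, while *Aph1b* and *Dtx4* cross 0.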

How the data were processed

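RNA of micro-dissected E12.5 midbrain was isolated with Trizol, labelled and hybridized on 4 dual-colour Agilent arrays. The authors deposited mean and median spot and background intensity per channel, quantified with ImaGene and not normalized, and a table of log2 ratios, which they had normalized within each array by print-tip loess. Ratios were computed again from the mean intensity without background subtraction, with 1 loess curve per array (span 0.3, 4 iterations, limma 3.58.1 in R 4.3.3; 4046 controls without weight), and turned to dr/dr over wild-type. Normalized intensities are the 2 channels after this step. They were not scaled between arrays, whose number limits the precision. A spot was above background when its mean exceeded the local background by 2 SD of it.

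The permutation F2 test (5000 global shuffles, dye term) was run in Python 3.11.15 with numpy 2.4.6 and pandas 2.3.3. A single data set simulated without any change still gave some calls. The family-wise threshold therefore cannot be taken as kept, and calls may include false ones. SEs are limma's moderated errors with a dye term. They leave out the dye effect and can be smaller than the SD implies. Figures were drawn with matplotlib 3.10.9.

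The annotation named 34186 of 41174 probes by symbol, and 2020 of 18322 symbols were updated through RefSeq synonyms. Probes of a gene are numbered from the brightest, which stands for the gene where 1 value is needed. A gene counted as called if any probe was. Named are all family probes, called genes of the lists, the largest mean of each list and the 5 genes most like *Dtx3*. The members and lists were chosen with earlier results of these data known. Alternatives were normexp (offset 50), median centring, the authors' log2 table, median spot signal, no dye term, full-model residuals, no dim probes, the brightest probe only, limma calls and each array left out.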

Additional observations from a re-analysis of the deposited data

How the results depend on the processing

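With 1 array left out at a time, 0 to 7 probes were called across the array, against 113 with all arrays, and at most 1 of them was among the 113. None of the 2 called partner and substrate genes was then called (0 each time). Without the dye term 36 probes and 0 such genes were called, and of the families only *Dtx3* probe 2. limma called 0 probes and 0 such genes at an adjusted p below 0.05, 249 probes below 0.10, and with an intensity trend 399 probes, 7 partner or substrate genes and 2 Notch pathway genes (*Lfng* and *Tle3*). The median spot signal gave 308 probes, 103 of them among the 113, and 4 partner or substrate genes. Without dim probes, and by the brightest probe only, *Bsg* was the 1 such gene left. The cause of these changes was not tested. normexp (119 probes), median centring (98), the authors' table (112), full-model residuals (113) and removal of dim probes (86) kept the calls of *Ncstn* and both *Dtx3* probes. Of 104 recomputed ratios of the 13 probes, 104 moved by less than the SD over arrays. For the values with 1 array left out this outcome is fixed by the arithmetic, so nothing is read from it. With median centring in place of loess, the dye effect was 0.57 for *Dtx3* probe 1 and 0.24 for probe 2, against 0.21 and 0.077, so its size depends on the normalization. Raw *Ncstn* intensities were 62.8 to 132 in dr/dr and 80.3 to 212 in the wild-type pool over local backgrounds of at most 35.9, so that background is part of its ratio. Each ratio already sets dr/dr RNA against the wild-type pool within 1 array. Pairing by litter was not possible, because 1 common wild-type pool served all arrays.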
